A study of Mus musculus with 2 samples.

Results

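CTCF summits lying just past the ends of genes were described in mouse embryonic stem cells (ESCs). A summit is the position of highest tag pile-up inside a peak, and a gene-end summit is defined here as one within 2 kb downstream of the annotated 3′ end of a protein-coding gene, outside every annotated gene and more than 1 kb from every gene start. Of the 33226 deposited summits on chromosomes 1 to 19, 993 met this rule, 2.99% of the list (95% Wilson interval 2.81 to 3.18). The next protein-coding gene downstream was convergent, on the opposite strand and reading back toward the site, at 417 summits, and tandem, on the same strand, at 575. At 1 summit there was no further gene before the chromosome end. The remaining summits lay in gene bodies (16013), within 1 kb of gene starts (2236) or elsewhere between genes (13984, called other intergenic summits below).

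The ESCs were the R1/E line carrying, besides its own CTCF, a LAP-tagged CTCF with a GFP part expressed from an integrated bacterial artificial chromosome (BAC) that holds the Ctcf gene. They were grown without feeders on gelatine with LIF, the cytokine that keeps them undifferentiated, and crosslinked in 1% formaldehyde, and the chromatin was sheared by sonication. One library was made with a goat antibody against GFP, here called the CTCF library, and 1 with a goat IgG isotype control, whose label also calls it input DNA. There was 1 library per antibody and no replicate, so every interval below covers counting error only and no comparison could be set against the spread between cultures.

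CTCF is a zinc finger protein that binds a long, non-palindromic DNA motif and, with cohesin, holds chromatin loops. The motif has a direction, and pairs of motifs that point toward each other are the usual anchors of loops. Past the 3′ end of a gene the transcript is cleaved and polyadenylated, while RNA polymerase II runs on for some distance before it is released. Between convergent genes, transcription from both sides runs toward the same stretch of DNA.

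The sequences at the gene-end summits were searched with a matrix of 192 CTCF motif sequences whose consensus is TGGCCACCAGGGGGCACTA. The best match within 150 bp of a summit is printed below on the strand of the match with 5 flanking bases on each side, and capitals mark the bases aligned to the matrix. Coordinates are those of mm9. The first set shows sites among the 10 with the highest peak score, which show how much the best bound sites differ from the consensus and from each other.
Rbm5 (chr9:107641251-107641279, minus strand): gtgtcTGCCCTGCAGAAGGCAGCCcgccc
Ttyh3 (chr5:141095280-141095308, minus strand): ggcagAGGCCAGAAGAGGGCATCGggcca
Fam65a (chr8:108146458-108146486, plus strand): agctgTCGCCACCAGGGGGCAGCAgaact
Slc34a3 (chr2:25084014-25084042, minus strand): ctcccTAGCCACTAGGGGGCACCCttcct
Rexo2 (chr9:48275103-48275131, plus strand): ttcagAGTCCAGAAGAGGGCACCAgatcc
Srsf3 (chr17:29182011-29182039, plus strand): ttgttTAACCACTAGGAGGCAGTAttacc
Ppp2r2a (chr14:67631479-67631507, minus strand): gtagtTTCCCACCAGGGGGCAGTAgttac

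The second set holds the sites with the highest scores that lay within 2 kb of the ends of 2 convergent genes at once, where the site sits between both 3′ ends.
Aldh9a1 and Mgst3 (chr1:169300191-169300219, plus strand): gggttACACCAGCAGATGGCGCCCaagct
Psrc1 and Celsr2 (chr3:108192361-108192389, minus strand): ggctcCAGCCACCAGGTGGCAGCAacaca
Prdx2 and Junb (chr8:87499499-87499527, plus strand): taaggAAGCCAGAAGAGGGCATTGcatcc
Mdm2 and Cpm (chr10:117125464-117125492, minus strand): tgaagAGGCCGGAAGAGGGCATCAgatcc
Eef1b2 and Gpr1 (chr1:63227729-63227757, plus strand): catgaAGGCCAGCAGAGGGCAGTGttagg

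The third set is from gene ends of the lists described further on, with a poly(A) polymerase gene, a ribosomal protein gene, a 5-methylcytosine oxidase gene, an ESC gene, a translation factor gene and a Hox gene.
Papola (chr12:107077510-107077538, plus strand): tttctCTGTCAGCAGGTGGCACTGttgtt
Rps19 (chr7:25675639-25675667, plus strand): ctcttCGGCCACTAGGTGGCAGCTgctag
Tet1 (chr10:62267007-62267035, minus strand): cgtagAAGCCACAAGAGGGCATCCaatct
Dppa2 (chr16:48321093-48321121, minus strand): cctgcAGGCCAGAAGAGGGCACTAgatct
Eef1a1 (chr9:78325161-78325189, plus strand): tcaaaGCACCAGTAGATGGTGCTActcca
Hoxa13 (chr6:52207112-52207140, plus strand): gcttgTCAACACGAGGTGGCGCCCttgat

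The sites past Rexo2, Mdm2, Dppa2 and Commd8 share the letters AGAGGGCANNNGATC, which run from the motif into the flank. Searched on the motif strand in windows of the printed length, these letters were present at 56 of 746 gene-end motifs, 7.51% (95% Wilson interval 5.83 to 9.62). The sites from which the letters were read are among these 746, so part of the gene-end count was fixed by that choice. The letters were present at 5.55% of the motifs at other intergenic summits (5.12 to 6.003) and at 6.84% (6.398 to 7.316) of those in gene bodies. The gene-end interval includes the gene-body share, so no difference between these was detected. Of 3917 motifs past gene ends that had no summit within 1 kb, 15.5% (14.4 to 16.7) held the letters. Motifs with these letters were thus a smaller share under summits than among motifs without one, and no repeat annotation was used here to say which lie in repeats. Near-identical sequence can lose or share tags, and the part of this in the difference was not tested.

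The CTCF library held 8391191 tags and the IgG library 7988889 tags, and no position and strand was listed more than 1 time in either. A stretch of chromosome 8 around Ctcf, from 108080001 to 108250000, in which IgG tags were raised, held 19 summits and only 1 gene-end summit, that past Fam65a. Results that rest on it are given with and without it.

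The gene-end summits are peaks called from these CTCF tags over IgG, so an excess of CTCF tags was fixed by that choice. The tag counts below describe the size of this excess and are not separate support for binding. Within 150 bp, the CTCF tags ranged from 6 to 113 with a median of 15, and the IgG tags from 0 to 6 with a median of 1. IgG tags were absent at 363 of the sites, and at none of the 993 did the IgG library exceed the CTCF library after scaling to depth. Summed over all sites, 16826 CTCF tags stood against 1061 IgG tags, which after scaling to depth is a ratio of 15.1 (14.2 to 16.1, exact 95% interval), and of 15.1 without the Fam65a site. At other intergenic summits the ratio was 14.3 (14.1 to 14.5), so the gene-end sites were enriched to about the same degree. By an exact binomial test, two-sided, with Benjamini-Hochberg adjustment over all deposited summits, 962 of the 993 (96.9%) passed an adjusted p of 0.05 with CTCF higher, beside 94.9% of all summits tested. When tags were recounted by a Poisson probability against the local IgG rate, one-sided, 863 (86.9%) passed, beside 85.5% of all. Both tests compare 2 libraries and largely repeat the peak calling, which used the same tags.

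**Figure D1:**
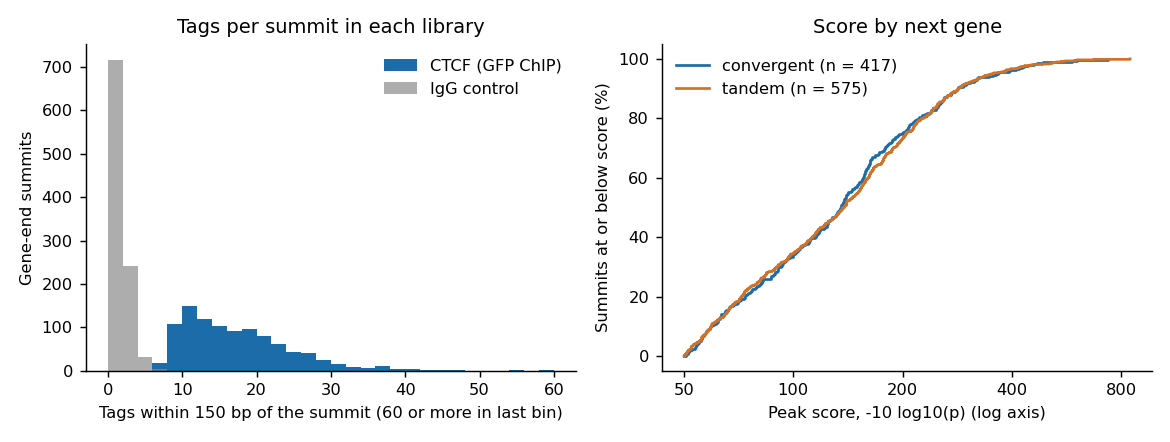
Left, histogram of the tags within 150 bp of each of the 993 gene-end summits in the CTCF (blue) and IgG (grey) libraries. CTCF tags run from 6 to 113 with a median of 15, and IgG tags from 0 to 6. Right, share of summits at or below each peak score for 417 convergent and 575 tandem gene ends, whose curves run close together with medians of 135 and 138.

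Peaks past gene ends scored somewhat higher than those elsewhere. The peak score, the negative log10 of the MACS p-value times 10, had a median of 136 (order-statistic 95% interval 130 to 141) at gene ends, against 117 (115 to 118) at other intergenic summits, 120 (118 to 121) in gene bodies and 108 (104 to 112) at gene starts. Pile-up heights did not separate the groups, with a median of 13 tags both at gene ends and at other intergenic summits. The median peak was 890 bp wide (863 to 910) at gene ends and 832 bp (827 to 837) at other intergenic summits. The GC content within 150 bp of the summit was 47.8% (47.2 to 48.2) against 45.8% (45.5 to 45.8), and the part of base composition in the score was not tested. Scores were spread widely: 342 of the gene-end peaks scored below 100, 392 from 100 to under 200, 176 from 200 to under 300 and 83 at 300 or more.

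The strongest gene-end sites lay past genes of diverse function. The highest score, 848, was that of a 2236 bp peak 1491 bp past Rbm5, which encodes an RNA-binding regulator of splicing, with 31 CTCF and 2 IgG tags near the summit. The next, 739, lay between Ttyh3 and the convergent Lfng, a modifier of Notch signalling, with 30 CTCF and 0 IgG tags. Of all the gene-end sites, that 364 bp past Fam65a had the most CTCF tags, 113 against 4 IgG tags, in a peak of 6279 bp whose next gene, 14010 bp further on, is Ctcf itself. It lies in the stretch of raised IgG tags named above. The site 1709 bp past Srsf3, a splicing factor gene, had 54 CTCF tags and 1 IgG tag, and the next gene downstream was Cdkn1a, which encodes the cell cycle inhibitor p21. Its depth-scaled ratio was 51.4 with an adjusted p of 6.71e-12 by the exact binomial test, two-sided, with Benjamini-Hochberg adjustment. Sites past Slc34a3, a phosphate transporter gene, and Slc27a4, a fatty acid transporter gene, had 38 and 36 CTCF tags against 1 IgG tag each. Past Lsm11, whose product acts in histone mRNA 3′ end processing, there were 36 CTCF and 2 IgG tags. Past Rexo2 and Ppp2r2a there were 37 and 25 CTCF tags against 0 and 1, and past 5830415F09Rik 27 against 1. All 10 of these highest scoring sites held a CTCF motif.

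At the other end of the list, the lowest scores of 50.2, 50.1 and 50.0 were those past Harbi1, Commd8 and Wbscr28, with 8, 9 and 10 CTCF tags against 0, 0 and 1 IgG tags. The 3 summits nearest to an annotated end lay 5 bp past Rnf135, 20 bp past Hpn and 21 bp past Tmem100. They had 13, 20 and 7 CTCF tags against 1, 0 and 1 IgG tags, and that of Tmem100 did not pass the exact binomial test, two-sided, with a Benjamini-Hochberg adjusted p of 0.0729. At the far border of the window, the summits past Ndufa5 and 2700007P21Rik lay 2000 bp from the end with scores of 166 and 163, and those past Scd3 and Phyhip lay just outside it at 2002 and 2005 bp with scores of 244 and 62.1.

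Of 17598 protein-coding genes on chromosomes 1 to 19 with any eligible sequence in the 2 kb past their end, 961, or 5.46%, had a gene-end summit. A single summit was found past 931 of them, 2 past 28 and 3 past Tbc1d24 and Vps18. The 3 sites past Vps18, which encodes a subunit of the vesicle tethering complexes of the endosome and lysosome, lay at 136, 878 and 1837 bp with 13, 8 and 10 CTCF tags and no IgG tag. Those past Tbc1d24 lay at 117, 861 and 1864 bp with 13, 8 and 29 CTCF tags against 0, 2 and 2 IgG tags, and the middle one did not pass the exact binomial test, two-sided (Benjamini-Hochberg adjusted p = 0.112). Genes with and without an end summit had similar lengths, with medians of 16626 bp (15257 to 19124) and 16201 bp (15669 to 16749). By chromosome, the share of gene ends with a summit ran from 3.83% on chromosome 6 to 7.37% on chromosome 15. The median summit lay 927 bp past the end, 238 of the peaks (24.0%) reached back into the gene, and 170 summits had another summit within 2 kb.

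Gene lists chosen for the tissue held few end summits each, and their counts are read against the 5.46% of all gene ends, with no test. Of the 113 ribosomal protein genes with eligible sequence, 12 had an end summit (10.6%), including Rps19, Rpl30, Rpl38, Rpl3 and Rps10 with 32, 31, 27, 23 and 13 CTCF tags against 0, 0, 3, 2 and 2 IgG tags. This list holds Rpl31-ps4 and Rplp2-ps1, which are named as pseudogenes, and near-identical copies can lose or share tags. Of 32 pluripotency and ESC genes, 3 had an end summit. Past Tet1, an enzyme that oxidises 5-methylcytosine, 18 CTCF and 2 IgG tags lay at 313 bp, past the ESC gene L1td1 17 and 0 at 1213 bp, and past Dppa2 10 and 2 at 1305 bp. Of 16 genes of mRNA 3′ end formation, only Papola, the poly(A) polymerase gene, had one, at 281 bp with 20 CTCF and 4 IgG tags. None of 25 genes of CTCF, cohesin and condensin had one. The sites in the Hox clusters lay 534 bp past Hoxa13 with 25 CTCF tags and 1 IgG tag, and 1227 bp past Hoxb13 with 10 and 0, making 2 of 22 Hox genes. Among 30 imprinted genes, Ddc and Magel2 had a summit, with 24 and 19 CTCF tags against 1 and 3. Of 19 housekeeping genes, Eef1a1, Hspa8 and Tbp had one, with 29, 10 and 10 CTCF tags against 0, 1 and 0.

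Summits were denser past gene ends than in the rest of the space between genes. The 30.4 Mb of eligible sequence within 2 kb past gene ends held 32.6 summits per Mb (exact 95% interval 30.6 to 34.7), and other intergenic sequence 10.5 (10.3 to 10.6), a ratio of 3.11 (2.92 to 3.32). Within the window it was about level, at 33.5 per Mb at 0 to 500 bp, 33.6 at 500 to 1000 bp, 31.9 at 1000 to 1500 bp and 31.3 at 1500 to 2000 bp, with overlapping intervals. From 2 to 3 kb it was 33.0, and the 0 to 2 kb window held 1.04 times (0.957 to 1.13) the density of the 2 to 5 kb window. It then fell with distance to 26.2 at 5 to 10 kb, 22.5 at 10 to 20 kb, 17.9 at 20 to 50 kb and 6.62 beyond 50 kb. A window on the other side of genes, 1 to 3 kb upstream of gene starts, held 29.9 summits per Mb, and the gene-end density was 1.09 times that (0.994 to 1.20). A higher density immediately past the end, as against the wider surroundings of genes, was therefore not detected.

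**Figure D2:**
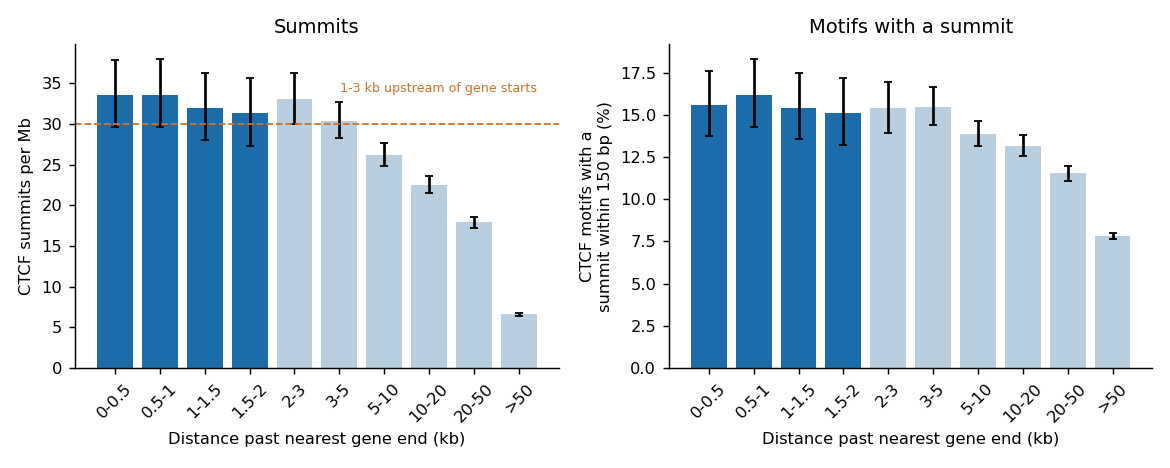
CTCF summits per Mb of eligible sequence (left) and the share of CTCF motifs with a summit within 150 bp (right) by distance past the nearest gene end, with the gene-end window in dark blue and 95% intervals as bars. Density stays between 30.4 and 33.6 per Mb up to 5 kb, close to the 29.9 per Mb found 1 to 3 kb upstream of gene starts (dashed line), and falls to 6.62 beyond 50 kb.

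The sequence past gene ends was also richer in motifs than other intergenic sequence as a whole, and close to other sequence near genes. It held 170 motifs per Mb against 84.1 in other intergenic sequence, with a GC content of 43.8% against 40.9%. At 2 to 3 kb and 3 to 5 kb past ends there were 167 and 161 motifs per Mb, and 1 to 3 kb upstream of starts 175. Of the 5184 motifs within 2 kb past gene ends, 15.6% (14.6 to 16.6) had a summit within 150 bp, against 9.90% (9.73 to 10.1) of other intergenic motifs. The share was 15.4% at 2 to 3 kb, 15.5% at 3 to 5 kb and 13.3% (12.4 to 14.3) at 1 to 3 kb upstream of starts. Counted per motif, the density ratio of gene ends to other intergenic sequence was 1.54 (1.44 to 1.64) in place of 3.11. Outside the peaks, the CTCF to IgG ratio was 1.22 (1.21 to 1.23) past gene ends and 0.931 (0.929 to 0.932) in other intergenic sequence, so the CTCF library was raised past gene ends also between the called sites. The same ratio was 1.21 at 2 to 3 kb and 1.19 at 3 to 5 kb, so the rise was not confined to the gene-end window. The part of this general rise in the summit density was not tested.

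Convergent and tandem gene ends had similar summit densities. Density was 32.1 per Mb (29.1 to 35.3) past convergent and 33.0 (30.4 to 35.8) past tandem ends, a ratio of 0.972 (0.855 to 1.10). Median scores were 135 (125 to 141) and 138 (127 to 148). A motif was found at 75.5% (71.2 to 79.4) and 74.8% (71.1 to 78.2) of them. Gene ends were also grouped by the gap to the next gene. At gaps under 2 kb, density was 51.6 per Mb (35.9 to 71.8) past convergent ends, from 35 summits. Past tandem ends it was 66.9 (35.6 to 114), from only 13 summits. At gaps over 50 kb it was lower, at 15.5 (11.6 to 20.4) past convergent and 21.0 (17.0 to 25.6) past tandem ends. At gaps of 2 to 5 kb, 39.5 summits per Mb past convergent ends stood against 54.3 past tandem ends, a ratio of 0.727 (0.533 to 0.987). It was the 1 of 6 gap classes whose interval left out 1, and with 6 classes read it is a weak difference. The tandem gaps of this length end at the start of the next gene, and the convergent ones at its 3′ end.

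**Figure D3:**
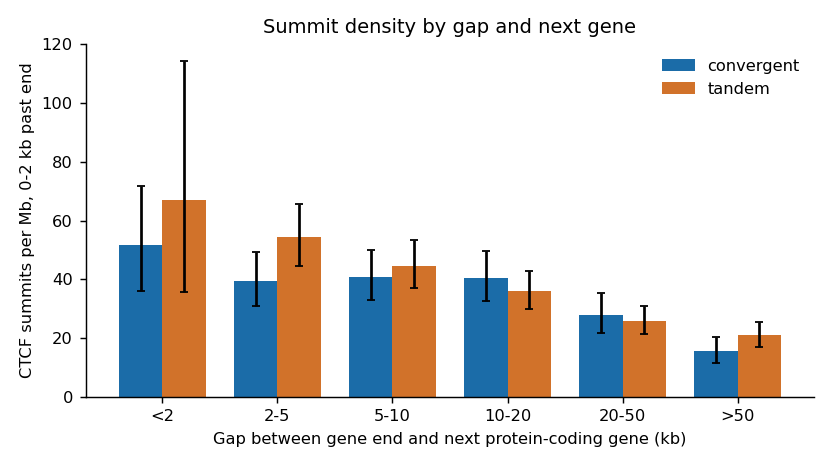
CTCF summits per Mb in the 2 kb past gene ends by the gap to the next protein-coding gene, for convergent (blue) and tandem (orange) arrangements, with exact 95% intervals. Density falls from 51.6 and 66.9 per Mb at gaps under 2 kb to 15.5 and 21.0 at gaps over 50 kb. At 2 to 5 kb the arrangements are at 39.5 and 54.3, a weak difference with overlapping intervals.

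In 63 cases the summit lay within 2 kb of 2 gene ends at once, as in the second set of sequences. The site between Aldh9a1 and Mgst3 had 43 CTCF tags and 1 IgG tag and lay 1568 and 1868 bp past their ends. Between the elongation factor gene Eef1b2 and the receptor gene Gpr1 there were 46 and 2 tags, and between Psrc1 and the cadherin gene Celsr2 37 and 0. Between Prdx2, a peroxiredoxin gene, and Junb, an AP-1 transcription factor gene, there were 30 and 2, and between Mdm2, the ubiquitin ligase that acts on p53, and the carboxypeptidase gene Cpm 21 and 3. All 63 passed the exact binomial test, beside 96.9% of all gene-end summits and 94.9% of all summits tested, so nearly all were bound to pass. Their median score of 125 (93.5 to 137) lay below the 136 of all gene-end summits with an interval that reached it.

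A CTCF motif at p 1e-05 lay within 150 bp of 746 of the 993 summits, 75.1% (72.3 to 77.7), against 6.80% of positions 2000 bp to either side. The share was 74.5% (73.8 to 75.2) at other intergenic summits, a difference of 0.61 points (-2.26 to 3.30), and 72.6% (71.9 to 73.2) in gene bodies. At gene starts it was 59.5% (57.5 to 61.5), 15.6 points lower (12.2 to 18.9). Within the gene-end sites it was 62.9% (57.6 to 67.8) of peaks scoring below 100, 77.8% (73.4 to 81.6) from 100 to under 200, 87.5% (81.8 to 91.6) from 200 to under 300 and 86.7% (77.8 to 92.4) at 300 or more. More than 1 motif was found at 41 sites.

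Motifs at gene-end summits pointed along the gene more often than against it. The motif was on the strand of the gene at 423 of 746 sites, 56.7% (53.1 to 60.2). By distance, the share was highest next to the end but not confined to it, with 131 of 198 motifs (66.2%, 59.3 to 72.4) at 0 to 500 bp and 292 of 548 (53.3%, 49.1 to 57.4) at 500 to 2000 bp, a difference of 12.9 points (4.88 to 20.4). At 0 to 500 bp it was 63.6% (53.2 to 72.9) past convergent and 68.2% (59.0 to 76.1) past tandem ends. Motifs at the same distance that had no summit within 1 kb were on the gene strand in 549 of 1010 cases, 54.4% (51.3 to 57.4), or 11.8 points lower (4.31 to 18.8). Leaving out motifs with the letters AGAGGGCANNNGATC, the share at 0 to 500 bp was 65.2% (58.1 to 71.7). At 500 to 2000 bp, the share was 51.4% (49.6 to 53.2) of 2907 motifs without a summit, close to the 53.3% under summits. Further out, at 2 to 5 kb, it was 57.7% (54.5 to 60.9) of 911 motifs under summits, against 47.7% (46.3 to 49.1) of 4780 without one. An excess over motifs without a summit was thus present at 0 to 500 bp and at 2 to 5 kb, but was not detected at 500 to 2000 bp. The share at 0 to 500 bp was 8.42 points (0.882 to 15.4) above that at 2 to 5 kb, and 7.12 points (-0.718 to 14.4) without motifs that hold the letters, an interval that includes 0. The division by distance was made after the pooled share had been seen.

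**Figure D4:**
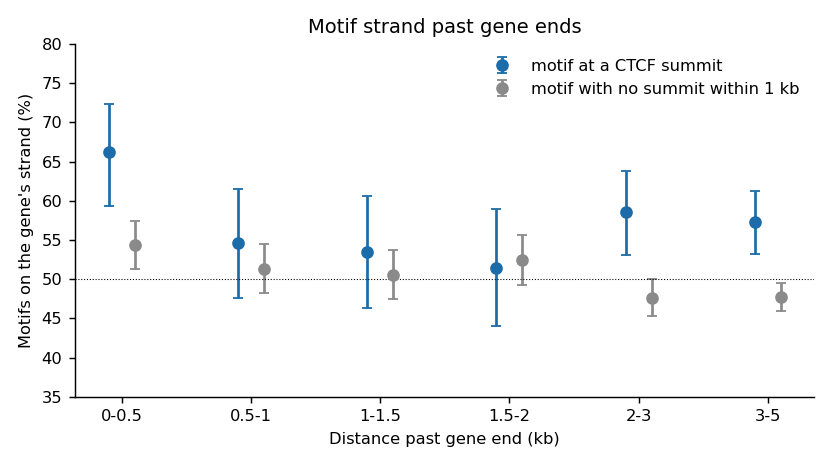
Share of CTCF motifs that lie on the strand of the gene, by distance past its end, at CTCF summits (blue) and at motifs with no summit within 1 kb (grey), with 95% Wilson intervals and a dotted line at equal shares. Motifs under summits are at 66.2% in the first 500 bp and between 51.5% and 54.6% from there to 2 kb.

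Genes with an end summit carried a summit at their start a little more often than others, at 99 of 961 genes (10.3%, 8.54 to 12.4) against 7.67% (7.27 to 8.08) of those without. With starts counted within 2 kb, the shares were 18.6% and 12.1%. In a gene shorter than 2 kb, that wider window can reach the end summit itself, so no conclusion is drawn from it. In the 46 genes with a motif at both summits, the start and end motifs pointed toward each other in 13, the same way in 22 and away from each other in 11. The facing arrangement was thus 28.3% of these pairs, with a 95% Wilson interval of 17.3 to 42.5.

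Around the summits, CTCF tags moved to the fragment centre were raised in 100 bp on each side, at 3.57 to 3.80 mean tags per site in each 50 bp bin, against 0.356 at the edge of the window 2000 bp upstream. A summit is by definition placed where the pile-up is highest, so this rise is a description of the peak calling and not a result. IgG tags in the same bins were at 0.145 to 0.207 per site, against 0.171 at that edge. The motif gives a second centre, read from the sequence, and unmoved tag 5′ ends were counted around it at the 705 gene-end sites with exactly 1 motif, in the direction in which the motif reads.

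Tag ends fell in separate crests on both strands. In the CTCF library the motif strand had crests of 396 tags at -425 to -400 bp, 798 at -175 to -150 bp and 799 at -25 to 0 bp from the motif centre, with a low of 43 at -325 to -300 bp. A smaller crest of 284 lay past the motif at 200 to 225 bp. The other strand had crests of 750 at -25 to 0 bp, 820 at 150 to 175 bp and 274 at 400 to 425 bp, with a low of 42 at 300 to 325 bp. It also had a crest of 422 before the motif, at -225 to -200 bp, so crests lay on both sides of the motif on each strand. The IgG library, made without the GFP-antibody, was not flat there either. Its motif strand had 73 tags at -250 to -225 bp and 62 at 25 to 50 bp, with 9 at -150 to -125 bp. Its other strand had 71 at -50 to -25 bp and 87 at 225 to 250 bp, with 10 at 350 to 375 bp. At the 9910 other intergenic summits with 1 motif, the IgG crests were in the same bins at -250 to -225 bp (968 tags, 2.41 times the mean bin) and at 225 to 250 bp (959 tags, 2.38 times). At gene ends these crests were 2.55 and 2.86 times the mean bin. Across the 3917 motifs past gene ends with no summit within 1 kb, no IgG bin exceeded 1.29 times the mean bin, but there were lows. The motif strand fell to 0.540 times at -200 to -175 bp, and the other strand to 0.527 times at 0 to 25 bp. The CTCF library was also not even at these motifs, with 828 tags at 150 to 175 bp on the other strand, 3.05 times the mean bin. The same bin at gene-end summits was at 2.96 times, but each ratio is to the mean bin of its own set. The 828 tags came from 3917 motifs and the 820 at gene-end summits from 705, so tags per motif were far fewer without a summit. On the motif strand of the motifs without a summit, the CTCF library had 400 tags at -175 to -150 bp, 1.63 times the mean bin. Tag ends were thus unevenly spaced in both libraries, around motifs under summits and around motifs without one.

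**Figure D5:**
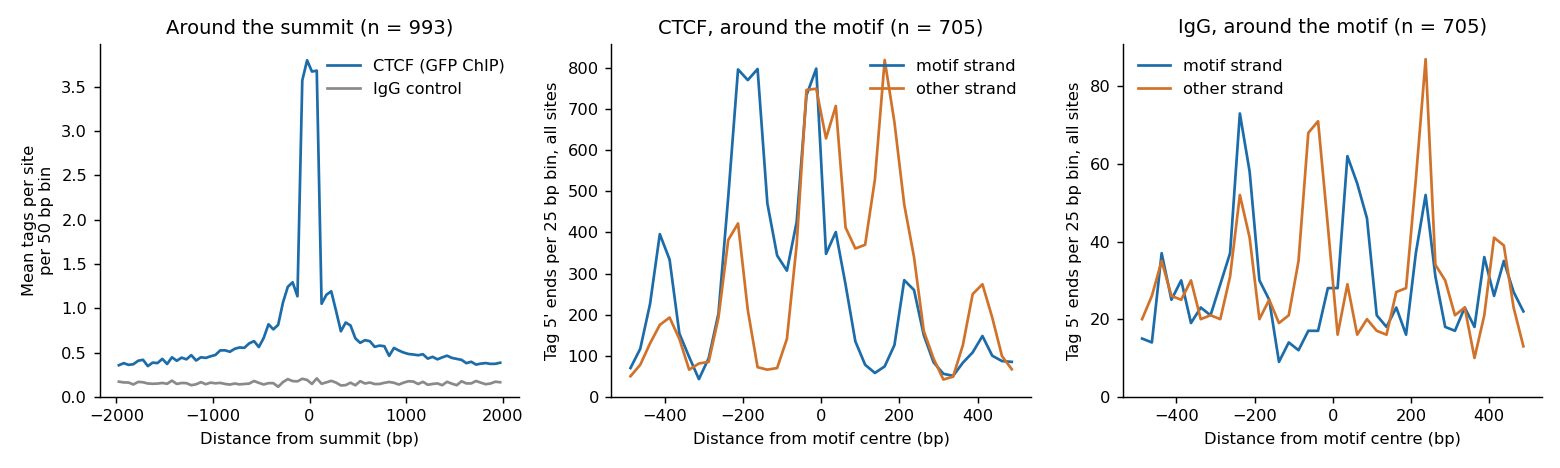
Left, mean tags in 50 bp bins around the 993 gene-end summits in the CTCF (blue) and IgG (grey) libraries, in tags per site. Middle and right, 5′ ends of CTCF and IgG tags in 25 bp bins around the centre of the motif at the 705 gene-end sites with exactly 1 motif, on the motif strand (blue) and the other strand (orange), with crests on both strands, the highest of the IgG library at -250 to -225 bp (73 tags) and 225 to 250 bp (87 tags).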

How the data were processed

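CTCF ChIP-seq of 1 BAC-tagged ESC line was analysed from 1 CTCF and 1 IgG library. The authors deposited 1 line per aligned tag of 35 bp with a count of 1 and no normalization, for both libraries. For the CTCF library the deposited peaks carry a score, the negative log10 of the peak's p-value over IgG times 10, and the deposited summits a signal, the pile-up height in tags. The submitters' processing notes name MACS 1.4 and mm9, and the aligner is not given in the sources used here.

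Gene ends, bodies and starts were those of GENCODE M1 on mm9. Tags were moved 92 bp toward the fragment centre, from a fragment length of 184 bp at the 1000 highest scoring peaks, and counted within 150 bp of each summit. Counts were compared by an exact binomial test, two-sided, with Benjamini-Hochberg adjustment over 33756 summits. Shares carry 95% Wilson intervals, ratios and densities exact 95% intervals and medians order-statistic intervals, all for counting error only, and differences of shares an interval combined from the 2 Wilson intervals. The matrix was made from 192 CTCF sequences of the study's supplement, held in part, with hits on the minus strand reverse-complemented, a pseudocount of 1 and a base composition of 0.29 for each of A and T, with 0.21 for each of G and C, and was searched on both strands at p 1e-05. Computation used numba 0.67.0, scipy 1.17.1, numpy 2.4.6, pandas 2.3.3 and matplotlib 3.10.9 under Python 3.11.15, and the scripts were tested on simulated data.

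Sites named are the 10 highest and 3 lowest scores, the 3 nearest to an end, the 2 just inside and the 2 just outside 2 kb, the 5 highest between 2 convergent ends, genes with 3 summits and up to 5 per gene list. The members and lists were chosen with earlier results of these data known, and the division of motif strand by distance, the search for AGAGGGCANNNGATC and the profile around the motif were added after seeing the data. Alternatives varied the window, annotation, score, tag window, scaling and motif search.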

Additional observations from a re-analysis of the deposited data

How the results depend on the processing

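With 1 library per antibody, no replicate could be left out, and no result could be set against the variation between cultures. No paired analysis was possible because neither antibody has a second library. The 8 results were recomputed under 31 alternatives, of which 12 moved a value past its own interval, or a count by over 1.5 times, and 19 did not. The number of gene-end summits was 530 with a 1 kb window, 2191 with a 5 kb window and 651 with peaks scoring at least 100. The density ratio of gene ends to other intergenic sequence was 3.44 with peaks scoring at least 100, 2.84 per IgG tag and, in an alternative chosen after seeing the data, 1.54 per motif, so that it stayed above 1 under each of them. The CTCF to IgG ratio was 8.84 within 500 bp and 16.8 when scaled to tags outside the peaks. The share of summits with a motif was 85.0% at p 1e-04, 28.9% within 50 bp and 81.6% for scores of at least 100. Among genes with an end summit, the share that also had a start summit was 18.6% with starts counted within 2 kb. The convergent to tandem density ratio ran from 0.938 to 1.02 over its 7 alternatives, each with an interval that holds 1, and the number past the binomial test was 990 within 500 bp and 983 when scaled to tags outside the peaks, with 863 past the Poisson recount used in its place. Each site rests on few tags, with medians of 15 CTCF tags and 1 IgG tag, which limits comparisons of single sites.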
